A study of Mus musculus with 12 samples.

Results

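The calcitonin gene-related peptide (CGRP) system was examined through 6 genes in the mouse spinal cord: the peptide genes Calca and Calcb, the receptor gene Calcrl, and Ramp1, Ramp2 and Ramp3, which encode the receptor's partner proteins. The genes were found by symbol among the 38924 genes of the deposited tables, and all 6 were among the 17189 genes tested. They were chosen with the comparison of the genotypes in view, so their differences between genotypes are described below without a test. RNA was sequenced from the whole spinal cords of 12 mice, all 8 weeks old and of B6J;FVB background. Of these, 6 were wild type (WT; written ETAQ+/+ in the labels) and 6 carried the ETAQ deletion of Gars in the heterozygous state (written ETAQ+/-, here ETAQ), and each genotype had 3 females and 3 males. The product of Gars is glycyl-tRNA synthetase, which joins glycine to its tRNA, and dominant variants of the human gene cause a neuropathy of peripheral axons.

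CGRP is a peptide made by motor neurons of the ventral horn and by many sensory neurons of the dorsal root ganglia, whose fibres end in the dorsal horn. In motor neurons it is carried to the neuromuscular junction, and from sensory endings it acts as a pain transmitter and dilates blood vessels. The transcript of Calca is spliced to encode either calcitonin, as in thyroid C cells, or alpha-CGRP, as in neurons, and Calcb encodes beta-CGRP. The receptor is a pair of proteins: CALCRL, a G protein-coupled receptor, with RAMP1 forms the CGRP receptor, whereas CALCRL with RAMP2 or RAMP3 responds mainly to adrenomedullin. The CGRP receptor raises cyclic AMP through the stimulatory G protein.

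Mouse numbers 1 to 12 come from the titles and name the libraries here. Library totals ranged from 23595929 to 41452662 expected counts (read pairs assigned to a gene by estimation). Normalised CPM are expected counts scaled to a common library total after TMM normalisation. A count of 0 allows up to 3 counts, or 0.073 to 0.129 CPM depending on the library (a limit that covers counting error only). Gars itself was measured at 145 ± 5.79 CPM in ETAQ and 127 ± 4.95 CPM in WT cords (SD, n = 6), a log2 fold change of 0.19 ± 0.03 (SE; edgeR quasi-likelihood test, adjusted p = 0.00408), and counts per gene do not read the deletion. Mice 1 to 6 stood apart from mice 7 to 12: 5 of 5 red blood cell genes, 6 of 7 skeletal muscle genes, 9 of 11 bone and marrow genes and 8 of 10 connective tissue genes were higher in mice 1 to 6, against 4.93% of all genes. In either direction 7.89% of all genes differed between the sets. Females and males are unevenly divided over these sets, with 5 of 6 males in mice 1 to 6. Oligodendrocyte, astrocyte, neuronal and motor neuron markers were present in every library of this labelled spinal cord tissue.

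The peptide genes lie close together in the genome and share part of their coding sequence. In the GENCODE M21 annotation of GRCm38, Calca (ENSMUSG00000030669) is on the minus strand of chromosome 7, at chr7:114631478-114636357, and Calcb (ENSMUSG00000030666) on its plus strand, at chr7:114718643-114723365. Their start sites are 82286 bases apart and face away from each other. The stretch below is the part of the coding sequence in which Calca-201, the transcript with 5 exons, and Calcb-201 are most alike, and it is shown because it decides whether reads of the genes can be told apart. Capitals mark the positions at which the 2 sequences differ. The last line is the part of Calca-202, the transcript with 4 exons, that follows the coding bases it shares with Calca-201. All 3 are coding bases, 5′ to 3′ on the gene's own strand. The first 2 are joined across introns and span chr7:114632499-114634477 (minus strand) and chr7:114720205-114722075 (plus strand), while the third is unbroken at chr7:114633675-114633785 (minus strand).
Calca-201: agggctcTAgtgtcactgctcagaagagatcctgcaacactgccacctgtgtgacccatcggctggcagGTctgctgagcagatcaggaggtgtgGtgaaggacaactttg
Calcb-201: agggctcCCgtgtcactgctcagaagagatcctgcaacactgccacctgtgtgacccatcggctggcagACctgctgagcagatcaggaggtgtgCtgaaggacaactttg
Calca-202: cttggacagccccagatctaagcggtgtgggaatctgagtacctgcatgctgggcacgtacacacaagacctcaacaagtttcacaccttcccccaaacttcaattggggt

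Calca-201 and Calcb-201 had the same base at 106 positions of this stretch (95.5%) and differed at 5. The longest run they shared anywhere in the transcripts was 60 bases, shorter than the 75-base reads, and no 75-base sequence of Calca or Calcb occurred in a transcript of another gene. Calca-201 and Calca-202 share their first 227 coding bases, after which 157 coding bases are found only in Calca-201 and 181 only in Calca-202. In the bases found only in Calca-202, the Calcb stretch matched at no more than 38 positions, and Calca-202 and Calcb-201 shared no run longer than 13 bases. Calca-201 is thus the transcript that resembles the beta-CGRP gene.

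By the authors' division of reads, Calca was counted almost wholly as its longer transcript. The deposited tables give a mean transcript length for each gene in each library, weighted by how the reads were divided over its transcripts, and for Calca it lay between 989.55 and 992.0 bases in all 12 libraries. In 3 libraries (mice 8, 9 and 12) it was at the longest value. Read through the 164 bases by which Calca-202 is shorter than Calca-201 in GENCODE M21, and with 992.0 taken as the length of the longer transcript, these lengths correspond to a share of 1.49% for the shorter transcript in mouse 1, the highest of the 12. GENCODE M21 gives the longer transcript 994 bases, a length that no library reached, and with that value the share in mouse 1 would be 2.71%. With 992.0 the share ran from 0% to 1.49% in ETAQ libraries and from 0% to 1.17% in WT libraries, so the ranges overlapped. These shares take Calca-201 and Calca-202 as the only transcripts, whereas GENCODE M21 also lists Calca transcripts of 404 to 720 bases. The annotation behind the deposited lengths was not given in the sources used here.

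Calca, the gene of alpha-CGRP, was lower in every ETAQ cord than in any WT cord. In the ETAQ mice, Calca was at 6.92 CPM in mouse 1, 5.10 in mouse 5, 4.68 in mouse 6, 4.16 in mouse 8, 4.40 in mouse 9 and 5.57 in mouse 11. In the WT mice, it was at 20.7 CPM in mouse 2, 18.1 in mouse 3, 23.2 in mouse 4, 16.2 in mouse 7, 28.3 in mouse 10 and 22.3 in mouse 12. The highest ETAQ library (mouse 1) was below the lowest WT library (mouse 7), and relative to its mean each genotype had about the same spread (coefficient of variation 19.6% in ETAQ and 19.8% in WT). The means were 5.14 ± 1.01 and 21.5 ± 4.26 CPM (SD, n = 6 each), a log2 fold change of -2.06 ± 0.16 (SE), or 4.17-fold lower in ETAQ. From the lowest upwards, this placed Calca at rank 19 of the 17189 log2 fold changes. The counts behind these values were 115 to 234 per ETAQ library and 452 to 955 per WT library. Because the tissue was measured in bulk, fewer cells of a type and less RNA per cell cannot be told apart for this or any later difference.

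Calcb, the gene of beta-CGRP, was also lower in each ETAQ cord than in any WT cord, by a smaller factor. Its ETAQ values were 3.34 CPM in mouse 1, 2.27 in mouse 5, 2.52 in mouse 6, 2.06 in mouse 8, 1.71 in mouse 9 and 2.05 in mouse 11. Its WT values were 5.48 CPM in mouse 2, 3.72 in mouse 3, 5.77 in mouse 4, 4.94 in mouse 7, 5.74 in mouse 10 and 4.58 in mouse 12. Mouse 1 was again the highest of the ETAQ libraries, and mouse 3 was the lowest of the WT libraries. The means were 2.33 ± 0.565 and 5.04 ± 0.796 CPM, a log2 fold change of -1.11 ± 0.16, or 2.16-fold lower, at rank 62 from the lowest. These values rested on 53 to 113 counts per ETAQ library and 98 to 237 per WT library. When reads of Calca and Calcb were summed and treated as 1 gene, the log2 fold change was -1.83.

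**Figure D1:**
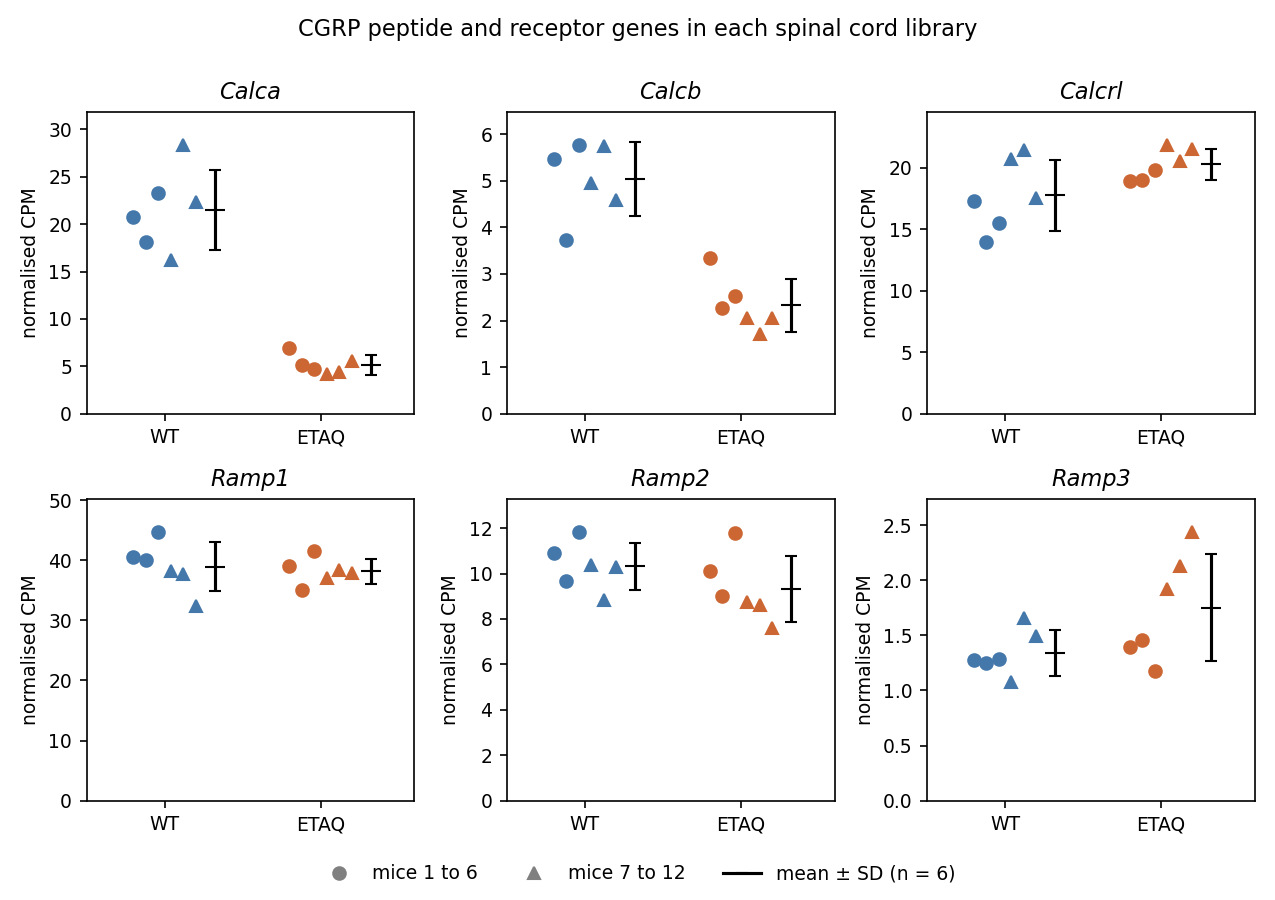
Normalised CPM (vertical axes, each from 0) of the 6 genes in each WT and ETAQ library; circles are mice 1 to 6, triangles mice 7 to 12, and black bars the mean ± SD (n = 6). For Calca and Calcb the ETAQ and WT points do not overlap, whereas for Calcrl, Ramp1, Ramp2 and Ramp3 they do.

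The receptor genes overlapped between the genotypes, with smaller differences than the peptide genes. By size of log2 fold change, Ramp3 ranked 1019, Calcrl 2529, Ramp2 3679 and Ramp1 12999 of the 17189 genes. Calca ranked 41 and Calcb 168 by size, and the median size over all genes was 0.0587. Calcrl, the receptor itself, was at 18.9, 19.0, 19.8, 21.8, 20.6 and 21.5 CPM in ETAQ mice 1, 5, 6, 8, 9 and 11. In WT mice 2, 3, 4, 7, 10 and 12 it was at 17.3, 14.0, 15.5, 20.7, 21.5 and 17.5 CPM. The highest ETAQ and highest WT libraries were nearly level, and the lowest 4 values of all were WT. The means were 20.3 ± 1.24 and 17.7 ± 2.89 CPM, with a log2 fold change of 0.20 ± 0.08. Within mice 1 to 6 the ETAQ values (18.9 to 19.8 CPM) lay above the WT values (14.0 to 17.3 CPM), and within mice 7 to 12 they overlapped (20.6 to 21.8 against 17.5 to 21.5 CPM).

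Ramp1, whose product makes CALCRL a CGRP receptor, was the most abundant partner gene and the one with the smallest difference. Its ETAQ values were 39.1, 35.1, 41.5, 37.1, 38.4 and 37.9 CPM in mice 1, 5, 6, 8, 9 and 11. Its WT values were 40.5, 40.1, 44.7, 38.2, 37.7 and 32.4 CPM in mice 2, 3, 4, 7, 10 and 12. The WT libraries held both the highest and the lowest value, and the ETAQ range lay inside theirs. The means were 38.2 ± 2.12 and 38.9 ± 4.06 CPM, with a log2 fold change of -0.03 ± 0.06.

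Ramp2 and Ramp3, whose products direct CALCRL towards adrenomedullin, overlapped between genotypes as well. Ramp2 ranged from 7.59 to 11.8 CPM in ETAQ (median 8.88) and from 8.84 to 11.8 CPM in WT (median 10.3), with a log2 fold change of -0.15 ± 0.10. Its value is uncertain, since 29.5% of its 75-base sequences also occur in transcripts of Vps25, an overlapping gene on the same strand. Its expected counts were not whole in any library (209.54 to 486.23). The authors' counting thus divided some reads between Ramp2 and other genes, which the counts do not name. Vps25 had a log2 fold change of 0.03 ± 0.04. Ramp3, the least abundant of the 6 genes, was at 1.39, 1.46, 1.18, 1.92, 2.13 and 2.44 CPM in ETAQ mice 1, 5, 6, 8, 9 and 11. In WT mice 2, 3, 4, 7, 10 and 12 it was at 1.27, 1.25, 1.29, 1.07, 1.66 and 1.49 CPM. The 3 highest libraries were ETAQ mice 8, 9 and 11, and the other ETAQ libraries lay within the WT range. The log2 fold change was 0.38 ± 0.19 on 30.0 to 70.0 counts per library. Of Ramp3's 75-base sequences, 2.19% also occur in Gm11978, an overlapping gene on the opposite strand, but Ramp3's expected counts were whole in every library.

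In the comparison of genotypes, a gene was called when its p from edgeR's quasi-likelihood test was under 0.05 after Benjamini-Hochberg adjustment over all genes, with a term for sex in the fit. The 6 CGRP genes were chosen on this comparison, so no call is given for them. Over all genes, 1.92% were called, 1.34% as lower and 0.582% as higher. These shares are the background for every gene list below. The ETAQ libraries lay wholly below the WT libraries for 1.35% of all genes, wholly above for 0.657%, and either way for 2.01%. Calca and Calcb were among the genes wholly below, and the receptor genes overlapped. For the 6 genes this is a description that carries no further weight.

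Calca and Calcb were lower in ETAQ within each set of mice. The sets are parts of the libraries on which the genes were chosen, so this is no replication. Calca's log2 fold change was -1.92 within mice 1 to 6 and -2.21 within mice 7 to 12, and Calcb's was -0.96 and -1.32. The receptor gene values were 0.31 and 0.09 for Calcrl, -0.12 and 0.07 for Ramp1, -0.09 and -0.22 for Ramp2, and 0.11 and 0.58 for Ramp3. Ramp1 thus had values of opposite sign in the sets, whereas the other 5 genes had the same sign in both. Of all genes, 0.803% were called within mice 1 to 6 and 0.937% within mice 7 to 12.

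**Figure D2:**
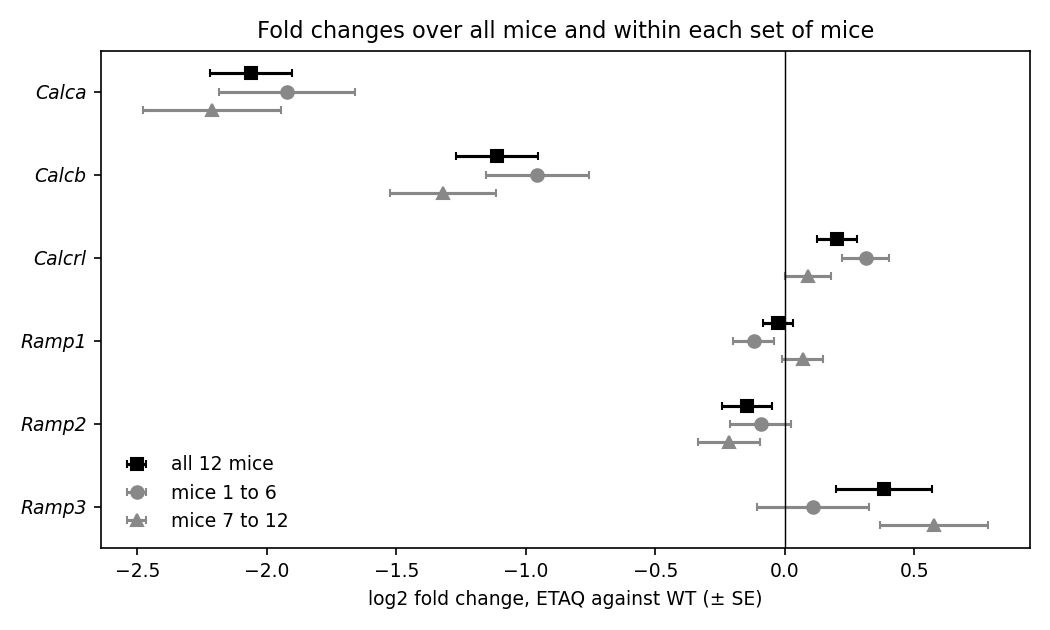
Log2 fold change (horizontal axis; ETAQ against WT) with its SE for each of the 6 genes, over all 12 mice (squares), mice 1 to 6 (circles) and mice 7 to 12 (triangles). Calca lies between -2.21 and -1.92 and Calcb between -1.32 and -0.96 in the 3 fits, while the receptor genes lie between -0.22 and 0.58.

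Levels of different genes were compared only per transcript length, as TPM. In WT cords Calca came first, at 47.1 ± 9.61 TPM, above Ramp1 at 28.3 ± 2.96 TPM in all 6 mice and with separate ranges. Ramp2 followed at 20.5 ± 2.47 TPM, below Ramp1 in each of the 6 mice but with overlapping ranges. Calcb (11.8 ± 1.83 TPM) and Calcrl (11.7 ± 2.18 TPM) could not be ordered, since Calcb was above Calcrl in 2 of 6 mice, and Ramp3 was last at 2.21 ± 0.375 TPM.

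In ETAQ cords Calca stood below Ramp1 and Ramp2. Ramp1 (28.9 ± 2.24 TPM) came first, above Ramp2 (19.9 ± 2.95 TPM) in all 6 mice with overlapping ranges. Calcrl (13.05 ± 2.28 TPM) and Calca (11.6 ± 2.34 TPM) could not be ordered, since Calcrl was the higher in 4 of 6 mice. Calcb at 6.08 ± 1.35 TPM and Ramp3 at 2.99 ± 0.916 TPM followed, each with a range separate from the gene above it. The length that enters TPM varied between libraries by a ratio of 1.498 for Calcrl (2332 to 3492 bases, longest in mouse 1), so Calcrl's TPM also moves with how its reads were divided over transcripts.

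**Figure D3:**
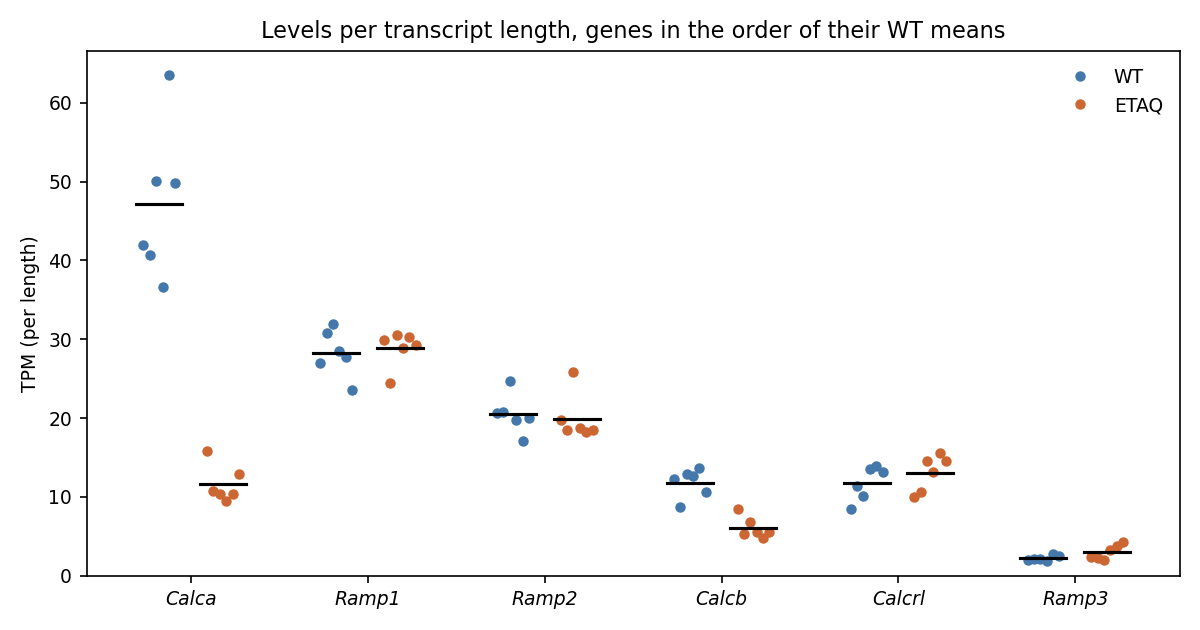
TPM (vertical axis, from 0) of the 6 genes in WT (blue) and ETAQ (orange) libraries, with the genes in the order of their WT means and a black line at each mean. Calca is the highest gene in WT and overlaps Calcrl in ETAQ, where Ramp1 is the highest.

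The difference between genotypes was unequal for Calca and Calcb, so the make-up of the peptide transcripts differed too. Calca made up 77.4%, 82.4%, 79.5%, 74.4%, 82.3% and 82.4% of the peptide gene TPM in WT mice 2, 3, 4, 7, 10 and 12. In ETAQ mice 1, 5, 6, 8, 9 and 11 it made up 65.1%, 67.0%, 60.1%, 63.1%, 68.4% and 70.0%. Every ETAQ value was below every WT value, and the means were 65.6 ± 3.62% and 79.7 ± 3.30%. The TPM ratio of Calca to Calcb was 1.93 ± 0.302 in ETAQ and 4.03 ± 0.759 in WT.

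Peptide transcripts outnumbered Calcrl transcripts in 11 of 12 libraries, by less in ETAQ than in WT. The summed TPM of Calca and Calcb was 17.7 ± 3.46 in ETAQ and 58.9 ± 10.6 in WT, whereas the summed TPM of the 3 Ramp genes was 51.8 ± 4.16 and 51.0 ± 4.61. Over Calcrl, the peptide genes stood at a ratio of 2.43 in mouse 1, 1.51 in mouse 5, 1.19 in mouse 6, 1.153 in mouse 8, 0.970 in mouse 9 and 1.26 in mouse 11. The WT ratios were 6.44, 4.32, 6.28, 3.64, 5.57 and 4.59 in mice 2, 3, 4, 7, 10 and 12, all above the ETAQ ratios. Ramp1 made up 55.8 ± 2.14% of the Ramp gene TPM in ETAQ and 55.4 ± 2.59% in WT, so the make-up of the partner genes overlapped between genotypes.

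**Figure D4:**
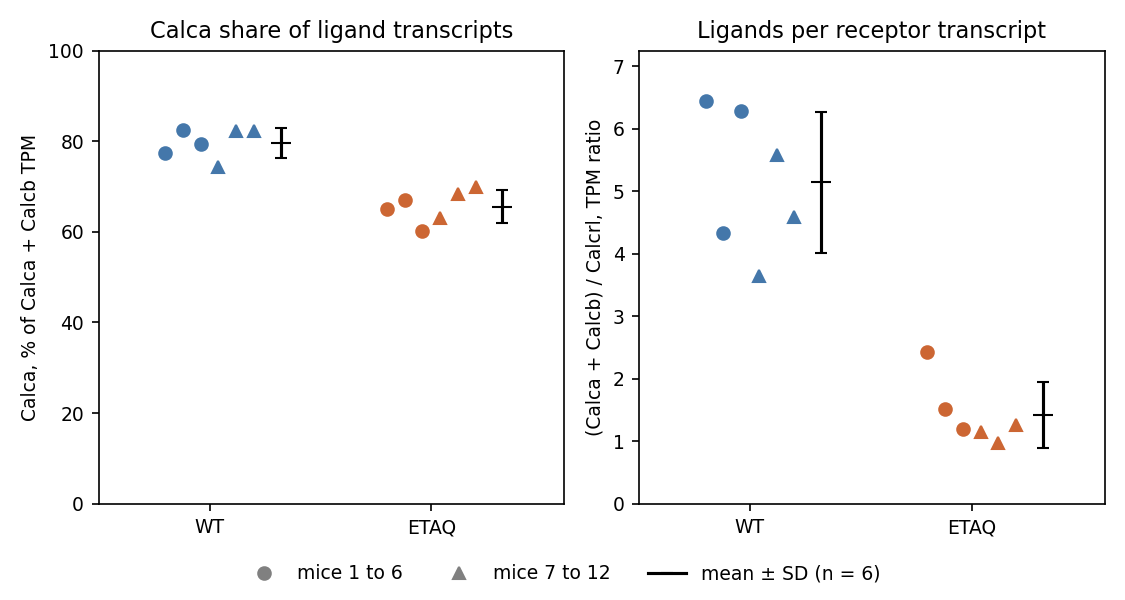
Left, Calca as a percent of the summed TPM of Calca and Calcb; right, the summed TPM of Calca and Calcb divided by Calcrl's TPM, for each WT and ETAQ library with the mean ± SD (n = 6). ETAQ libraries lie between 60.1% and 70.0% on the left and between 0.970 and 2.43 on the right, below all WT libraries.

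Sex and mouse set were not used to choose the genes, and the 6 genes could be tested for them. Between females and males 0 of 6 passed (edgeR, genotype as a covariate), with adjusted p from 0.264 to 0.917; 0.0931% of all genes were called. Calcrl had the smallest p, at 20.2 ± 1.64 CPM in females and 17.8 ± 2.80 CPM in males, with a log2 fold change for males against females of -0.19 ± 0.08 (adjusted p = 0.264) and the only unadjusted p under 0.05. Calca differed by -0.07 ± 0.15 and Calcb by -0.04 ± 0.16. With mouse set also in the fit, Calcrl's difference was -0.04 ± 0.09 (edgeR adjusted p = 1). Calcb's difference was then -0.32 ± 0.18, with the smallest p of the 6 genes (edgeR adjusted p = 1). By DESeq2, 321 genes were called for sex against 16 by edgeR.

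Between mice 1 to 6 and mice 7 to 12, with genotype and sex in the fit, 0 of 6 passed, where 7.89% of all genes did, although 4 of the 6 had an unadjusted p under 0.05. Ramp3 was nearest, at 1.31 ± 0.101 CPM in mice 1 to 6 and 1.79 ± 0.484 CPM in mice 7 to 12, with a log2 fold change of -0.58 ± 0.19 for mice 1 to 6 (edgeR adjusted p = 0.0724). Without WT mouse 7 its difference of -0.63 passed (adjusted p = 0.0345). Ramp2 differed by 0.30 ± 0.11 (edgeR adjusted p = 0.109), Calcrl by -0.22 ± 0.09 (adjusted p = 0.133) and Calcb by 0.42 ± 0.18 (adjusted p = 0.177). With sex left out of the fit, Calcrl's -0.25 passed (edgeR adjusted p = 0.00975), as 20.6% of all genes did. Calca differed by 0.17 ± 0.22 (edgeR adjusted p = 0.729), and this turned to -0.29 without mouse 1.

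Whether the genotype difference itself differed between the sexes or between the sets was tested through interaction terms. All WT males are in mice 1 to 6 and all WT females in mice 7 to 12, so within WT sex and set cannot be told apart, and only ETAQ mice 1 and 11 separate them. The interaction for sex was fitted without mouse set, and a difference under either term may belong to the other. For either term 0 of the 6 genes passed and 0% of all genes were called by edgeR, with 1 of the 6 genes at an unadjusted p under 0.05 for sex and 0 for mouse set. DESeq2 called 3 genes for each term. The genotype difference in Calca was larger in mice 7 to 12 by 0.29 ± 0.40 (edgeR adjusted p = 0.995) and that in Calcb by 0.36 ± 0.30 (adjusted p = 0.995). For Ramp3 the genotype difference in mice 1 to 6 less that in mice 7 to 12 was -0.47 ± 0.32 (edgeR adjusted p = 0.995), and for Calcrl it was 0.22 ± 0.14 (adjusted p = 0.995). For Calcrl the genotype difference was higher in males than in females by 0.33 ± 0.13, with the lowest p of the 6 for sex (edgeR adjusted p = 0.901).

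Genes beside Calca and Calcb on chromosome 7 were at nearly equal levels in the genotypes. Within 250 kb of either start site the annotation holds 3 other protein-coding genes. Pde3b, a phosphodiesterase that breaks down cyclic nucleotides, was at 14.4 ± 0.853 CPM in ETAQ and 14.2 ± 0.696 CPM in WT, with a log2 fold change of 0.01 ± 0.05 (edgeR adjusted p = 0.974). Insc, a regulator of spindle orientation that lies just beyond Calcb, was at 16.1 ± 2.08 and 15.9 ± 1.64 CPM, with a log2 fold change of 0.01 ± 0.07 (edgeR adjusted p = 0.975). Cyp2r1, a vitamin D hydroxylase gene, was too low to be tested. The other genes lie apart, Calcrl at chr2:84330626-84425411 (minus strand), Ramp1 at chr1:91179822-91225196 (plus strand), Ramp2 at chr11:101246028-101259546 (plus strand) and Ramp3 at chr11:6658521-6677475 (plus strand).

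Among the other ligands and receptors of the calcitonin family, 1 of 6 tested genes was higher in ETAQ and 0 were lower. Of all genes, 0.582% were higher and 1.34% lower. Adm2, which encodes adrenomedullin 2, a ligand of CALCRL with the RAMP proteins, was at 0 counts in all 6 WT libraries and at 100 counts over the ETAQ libraries (0.326 to 0.858 CPM). With WT set to 3 counts over the group, it was at least 36-fold higher in ETAQ (edgeR adjusted p = 0.000444). This gene was known from earlier results, and it passed the filter on low counts only through the ETAQ libraries. Its p and its call are therefore not independent evidence. Adm, the adrenomedullin gene, was at 2.004 ± 0.350 CPM in ETAQ and 2.12 ± 0.353 CPM in WT (log2 fold change -0.08 ± 0.13, edgeR adjusted p = 0.901). Calcr, the calcitonin receptor, was at 0.487 ± 0.111 and 0.606 ± 0.237 CPM (log2 fold change -0.32 ± 0.27, edgeR adjusted p = 0.761).

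Crcp, the receptor component protein first described as a helper of CGRP signalling, was at 14.4 ± 0.831 CPM in ETAQ and 15.7 ± 0.712 CPM in WT (log2 fold change -0.12 ± 0.05, edgeR adjusted p = 0.408). Ackr3, a scavenger receptor for chemokines and adrenomedullin, and Gpr182, a related receptor of endothelium, had log2 fold changes of -0.16 ± 0.09 and -0.21 ± 0.22 (edgeR adjusted p = 0.559 and 0.815). Iapp, the amylin gene, had 2 counts in all and was not tested. The median log2 fold change of the 6 tested genes was -0.14, against 0.00428 over all genes. Adm2, with the limit given above, was thus the only gene of this list to pass in the comparison over all mice and within mice 7 to 12.

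Downstream of the receptor, 0 of 30 tested signalling genes passed in either direction, where 1.92% of all genes did. Their median log2 fold change was 0.000679. The list held the stimulatory G protein gene Gnas, adenylyl cyclases, protein kinase A subunits, CREB and its coactivators, phosphodiesterases, arrestins and receptor kinases. The smallest p were those of Adcy6, an adenylyl cyclase, at 0.11 ± 0.04 (edgeR adjusted p = 0.248), and of Atf1, a CREB family factor, at 0.14 ± 0.05 (adjusted p = 0.309). Gnas was at 0.02 ± 0.03 (edgeR adjusted p = 0.864).

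Of 19 genes for the processing, storage and breakdown of neuropeptides, 1 was higher, 0 were lower and 18 did not pass (median log2 fold change -0.02). The share called over all genes was 1.92%. Vgf, which encodes a secreted neuropeptide precursor, rose from 96.0 ± 7.88 CPM in WT to 113 ± 5.39 CPM in ETAQ, by 0.24 ± 0.05 (edgeR adjusted p = 0.0129). Within mice 7 to 12 its 0.22 did not pass (adjusted p = 0.271). Pam, which amidates the end of CGRP and other peptides, was at 0.04 ± 0.05 (edgeR adjusted p = 0.859). Pcsk1 and Pcsk2, which cut peptide precursors, were at -0.03 ± 0.07 and -0.06 ± 0.04 (edgeR adjusted p = 0.937 and 0.635).

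Other neuropeptide genes of the cord were set beside the CGRP genes. Of 18 tested, 0 were higher, 1 was lower and 17 did not pass (median log2 fold change -0.04), where 1.92% of all genes were called. Uts2b, a urotensin-type peptide of motor neurons, was lower by -0.59 ± 0.14 (edgeR adjusted p = 0.042), and this call was lost when any of mice 2, 4, 5, 6, 8, 9, 10, 11 or 12 was left out. Tac1, the substance P gene, which many CGRP neurons of the ganglia also express, was at 19.2 ± 2.46 CPM in ETAQ and 18.8 ± 1.75 CPM in WT, a log2 fold change of 0.03 ± 0.08 (edgeR adjusted p = 0.935). Gal, the galanin gene, was at -0.12 ± 0.09 (edgeR adjusted p = 0.741). Sst, Penk and Npy, peptides of dorsal horn interneurons, were at -0.01 ± 0.09, -0.05 ± 0.04 and -0.03 ± 0.09 (edgeR adjusted p = 0.98, 0.764 and 0.949).

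Genes of motor and cholinergic neurons were lower beside Calca and Calcb: 11 of 19 tested were lower, 0 were higher and 8 did not pass, with a median log2 fold change of -0.54. This list was written with earlier results of these samples known, so its direction is not independent evidence. Chodl, a marker of fast motor neurons, fell from 44.6 ± 5.62 to 12.5 ± 1.17 CPM, by 1.84 on the log2 scale (SE 0.07, edgeR adjusted p = 7.12e-10). Chat, which makes acetylcholine, fell from 24.6 ± 1.116 to 15.8 ± 0.98 CPM, by 0.64 (SE 0.05, edgeR adjusted p = 2.62e-06). Prph, the intermediate filament peripherin, changed by -0.84 ± 0.05 (edgeR adjusted p = 2.84e-07), and the neurofilament genes Nefl and Nefh by -0.49 ± 0.03 and -0.54 ± 0.03 (adjusted p = 2.18e-07 and 2.33e-07).

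Within mice 7 to 12, 10 motor and cholinergic genes were lower, where 0.686% of all genes were. The 8 that did not pass included the transcription factor genes Isl1 (-0.02 ± 0.20, edgeR adjusted p = 0.986) and Mnx1 (-0.14 ± 0.12, adjusted p = 0.779) and the acetylcholinesterase gene Ache (-0.05 ± 0.03, adjusted p = 0.522). The list summed to 4264 to 4920 CPM in ETAQ and 6256 to 6869 CPM in WT libraries, most of it from neurofilament genes. This sum, like the peptide genes, was lower in every ETAQ library than in any WT library. The part of this in the Calca and Calcb difference was not tested. Per Chat transcript, Calca was also lower, at a TPM ratio of 1.11 ± 0.167 in ETAQ and 2.98 ± 0.608 in WT, with separate ranges (0.890 to 1.36 and 2.31 to 4.02).

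Genes of sensory ganglion neurons gave 2 higher, 2 lower and 8 not passing among 12 tested, and 6 more were below the filter on low counts. P2rx3, an ATP-gated channel of sensory neurons, rose from 1.41 ± 0.274 to 10.4 ± 1.64 CPM (log2 fold change 2.87 ± 0.13, edgeR adjusted p = 6.73e-09). Avil, the actin-binding protein advillin, rose from 0.455 ± 0.168 to 2.38 ± 1.004 CPM (log2 fold change 2.35 ± 0.32, edgeR adjusted p = 0.000934). The 2 lower genes were Prph and Nefh, which motor neurons also express. The list's summed level was 820.1 to 915.2 CPM in ETAQ and 1162 to 1318 CPM in WT, most of it from Nefh.

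Channel and receptor genes typical of nociceptors, the pain-sensing neurons of the ganglia that are rich in CGRP, were near 0 in all libraries but that of mouse 1. Scn10a, a sodium channel of these neurons, was at 2.66 CPM (90 counts) in ETAQ mouse 1 and at 0 to 0.070 CPM in the others. Scn11a, a second such channel, was at 1.92 CPM in mouse 1 and at 0.035 to 0.146 CPM elsewhere, and the heat receptor gene Trpv1 was at 0.444 CPM against 0.068 to 0.184 CPM. Mrgprd, a receptor of a further nociceptor class, was at 0 in 10 libraries and at 0.296 CPM in mouse 1. Mouse 1 also had the highest Calca, Calcb and Avil values of the ETAQ mice, but not the highest P2rx3 value. P2rx3 was at 9.44 CPM in mouse 1 and at 11.45, 11.73 and 12.25 CPM in mice 6, 8 and 9. In mice 5 and 11 it was at 8.36 and 8.95 CPM. The part of ganglion RNA in these values was not tested. Without mouse 1 the ETAQ means were 4.78 ± 0.562 CPM for Calca and 2.12 ± 0.298 CPM for Calcb (n = 5), and the log2 fold changes were -2.17 and -1.26. The ratio of the peptide genes to Calcrl was then 1.22 ± 0.198 and Calca's share of the peptide genes 65.7 ± 4.04%.

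**Figure D5:**
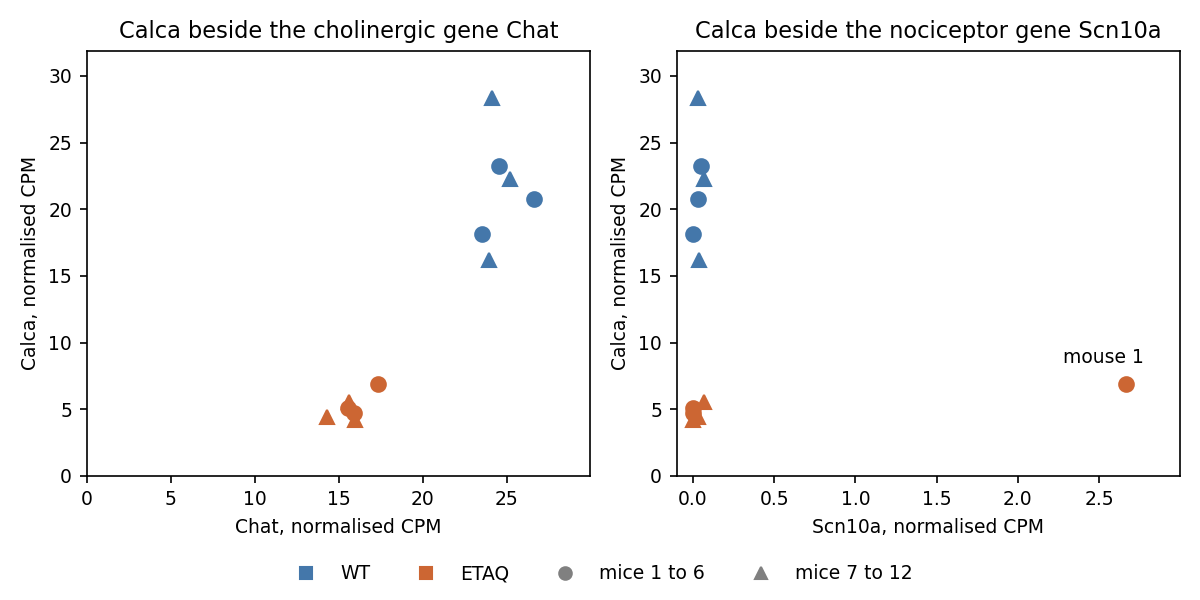
Calca (vertical axes, normalised CPM) against Chat (left) and against Scn10a (right; horizontal axes, normalised CPM) in the 12 libraries, WT in blue and ETAQ in orange, circles for mice 1 to 6 and triangles for mice 7 to 12. ETAQ libraries are low in Calca and in Chat together, and mouse 1 is the only library with Scn10a above 0.070 CPM.

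CALCRL and the RAMP proteins are found on blood vessels as well as on neurons and glia, so vascular markers were set beside the receptor genes. Of 14 endothelial genes and of 12 pericyte and smooth muscle genes, 0 passed in either direction (median log2 fold changes 0.04 and 0.10). The share passing over all genes was 1.92%. The endothelial genes with the smallest p were Kdr at 0.19 ± 0.10 (edgeR adjusted p = 0.522) and Erg at 0.14 ± 0.11 (adjusted p = 0.725). Kcnj8 and Pdgfrb, of pericytes, were at 0.20 ± 0.13 and 0.13 ± 0.09 (edgeR adjusted p = 0.668 and 0.709). The endothelial list summed to 333.9 to 448.2 CPM in ETAQ and 303.6 to 423.6 CPM in WT, overlapping as the receptor genes did.

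Among the remaining cell types, genes passed for genotype in the astrocyte list. Of its 7 genes 2 were higher, Agt by 0.24 ± 0.04 (edgeR adjusted p = 0.00194) and Slc1a3 by 0.19 ± 0.04 (adjusted p = 0.0141). Within each set of mice 1 of the 7 passed, and within mice 7 to 12 Slc1a3's 0.17 did not (edgeR adjusted p = 0.214). Of 6 oligodendrocyte, 6 microglial and 9 general neuronal genes, 0 passed in either direction by edgeR. DESeq2 called 1 neuronal gene lower. The smallest p among them were those of Snap25 at -0.11 ± 0.03 (edgeR adjusted p = 0.0836), Rbfox3 at -0.10 ± 0.03 (adjusted p = 0.178), Mog at 0.13 ± 0.04 (adjusted p = 0.227) and Cx3cr1 at 0.21 ± 0.08 (adjusted p = 0.342). For connective tissue, blood, muscle and bone, 0 genes passed for genotype.

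Within groups, the peptide genes varied together only in part. After the mean of each genotype in each mouse set was subtracted, Calca and Calcb had a Pearson r of 0.634 over the 12 mice, Calca and Ramp3 of 0.832, Calca and Calcrl of 0.11, and Ramp2 and Ramp3 of -0.64. The points share their libraries, with 3 mice in each genotype of each set, and these r are descriptions without a test. Among 14859 genes with a mean of at least 1 CPM, those most like Calca were Hdac1 (r = 0.952), BC004004 (0.94) and Hunk (0.935), and those most like Calcb were Exo5 (0.938), Atxn7l2 (0.912) and Aldh3b1 (0.905). For Calcrl they were Gbp10 (0.973), Ppp1r18 (0.952) and Cep72 (0.948), so no gene was named for more than 1 of the 3. They are the highest r of a search over 14859 genes in 12 mice. Whether unrelated genes would reach such values was not tested.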

How the data were processed

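Per the labels' protocols, polyA RNA from whole spinal cord was sequenced as 75-base read pairs. No genome build, annotation or strand setting, nor which of the named kits made which library, is given in the sources used here. Per the submitters' processing notes, Bowtie2 2.2.0 and RSEM 1.2.12 were used. Per the file headers, the deposited tables hold an expected count, a mean transcript length and a TPM value (scaled by length and library total by the authors' software) for each gene; 15.4% of the deposited expected counts were not whole.

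Expected counts were rounded and tested in R 4.3.3 with edgeR 4.0.16 (filterByExpr on genotype-by-sex groups, TMM, robust quasi-likelihood test, two-sided, threshold 0.05 after Benjamini-Hochberg adjustment over 17189 genes). TPM was described, and tested with limma 3.58.1 on log2(TPM + 0.1) only as an alternative; DESeq2 1.42.0 was another. SE was taken as the log2 fold change, without its sign, over the square root of F. No 2 libraries were alike within sampling noise (chi-square per degree of freedom at least 6.42). The fits were also run on simulated counts with a planted difference in a single term at a time, and the outcome is not given here. Those counts held no mouse set difference while sex was tested, so they cannot show how the uneven division of the sexes affects calls.

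The 6 genes, the mouse sets and 16 gene lists (201 entries, 191 tested, 3 without a matching symbol) were chosen with earlier results of these data known. The text names the 6 genes, their family and genomic neighbours, up to 4 called genes per list or the 2 with the smallest p, and the 3 genes most like Calca, Calcb and Calcrl. Chat, Tac1, Gal, Sst, Penk, Npy, Pam, Pcsk1, Pcsk2, Gnas, Isl1, Mnx1, Ache, Scn10a, Scn11a, Trpv1, Mrgprd and Vps25 were named for their roles after their values were seen. Positions and sequences are from GENCODE M21 (GRCm38) and describe that reference only.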

Additional observations from a re-analysis of the deposited data

Results flagged for a closer look

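In 28 groups of 6 mice, the highest and lowest values were compared with the rest, and a value was singled out when its gap to the nearest other exceeded the 95% critical share of the whole range (Dixon's test); chance alone singles out about 1 group in 20. All 3 values so found were the highest of the ETAQ mice and came from mouse 1. Its summed TPM of Calca and Calcb was 24.23, where the next ETAQ mouse had 18.44. Its ratio of peptide genes to Calcrl was 2.425, where the next had 1.515. Its ratio of Ramp1 to Calcrl was 2.992, where the next had 2.314. Mouse 1 is also the library with Scn10a at 2.66 CPM and the one in which Calcrl has its longest mean transcript length (3492 bases), which lowers its TPM; the part of either in these values was not tested.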

How the results depend on the processing

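Leaving out each mouse in turn moved the genotype log2 fold changes to between -2.17 and -1.96 for Calca, -1.26 and -1.03 for Calcb, 0.15 and 0.25 for Calcrl, -0.07 and 0.01 for Ramp1, -0.23 and -0.08 for Ramp2, and 0.22 and 0.47 for Ramp3. Summing Calca and Calcb gave -1.83 where Calcb alone had -1.11, since Calca supplies most of the reads. The number of genes called for genotype was 330, against 506 by DESeq2, 160 by limma on TPM, 138 within mice 1 to 6 and 161 within mice 7 to 12 (the last 2 added after seeing the data); leaving out a mouse gave 236 to 315. For sex the 16 calls became 321 by DESeq2 and 9 with mouse set in the fit, and 11 to 1180 when a mouse was left out (1018 without mouse 1, 1180 without mouse 11). For mouse set the 1356 calls became 587 by limma and 3533 with sex left out, and 163 to 1563 when a mouse was left out (163 without mouse 1, 284 without mouse 11). The 0 calls for the genotype-by-sex and genotype-by-set terms became 3 each by DESeq2, and 0 to 2 and 0 to 3 when a mouse was left out. With mouse set in the fit, the sex difference turned to -0.11 for Ramp2 and 0.24 for Ramp3. When a mouse was left out, the sex difference ranged from -0.156 to 0.0434 for Calca and from -0.118 to 0.0914 for Calcb, and the mouse set difference from -0.292 to 0.587 for Calca. The cause of these shifts was not tested. No paired analysis was possible because each mouse number occurs once. Depth limits Ramp3 and Calcb most, at 30 and 53 counts in their lowest libraries.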
